A study of Rattus norvegicus with 142 samples.

Results

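Hippocampi taken 6 h after hypoxic seizures were set against hippocampi of normoxic littermates of the same age. These were 9 of the 142 libraries of the series, chosen by their labels for tissue, time and treatment, where a library is 1 array hybridised with RNA from 1 tissue of 1 pup. The HS group was 4 Long-Evans rat pups that passed 15 minutes at 5% O2 on postnatal day 10, had seizures, and then received intraperitoneal vehicle (DMSO). The noHS group was 5 pups of the same age that underwent a normoxic sham and received the same vehicle. A further 6 pups had the same hypoxia followed by NBQX in place of vehicle (HS+NBQX). All came from 2 litters, here called L7 and L9, and each litter held all 3 treatments. Litter L7 gave 2 HS and 2 noHS pups and litter L9 gave 2 HS and 3 noHS pups. The HS pups had 17 and 10 seizures in L7, and 8 and 8 in L9. The labels used here give no region within the hippocampus, so each value is an average over all cell types of the tissue. In such bulk samples fewer cells of a type and less RNA per cell cannot be told apart.

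In the immature rodent brain a short fall in oxygen evokes seizures, and animals exposed to them are known to become more prone to seizures later in life. The hippocampus is a seizure-prone circuit built on excitatory glutamate synapses. Glutamate acts there on AMPA receptors, which carry fast excitation, and NBQX blocks these receptors. After strong neuronal firing, genes induced within minutes to an hour, many of them transcription factors, are typically followed over several hours by later genes for structural, synaptic and signalling proteins. A sample at 6 h lies in the period of such later changes.

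The array reports 24249 probe sets, sets of short DNA probes that together read 1 or more transcripts, as linear intensities that the authors had already scaled between arrays. No table at hand names the gene behind a probe set, apart from a few control transcripts whose identifiers name them. Probe sets are therefore given by identifier, 2 for each direction, and the neuronal, glial and vascular markers by which the labelled tissue would be checked could not be looked up. The median intensity was 67.8 to 71.6 in the HS libraries and 67.6 to 75.9 in the noHS libraries, and the upper quartile was 293 to 308 in HS and 294 to 322 in noHS. Pearson's r between log2 values of libraries, a description over probe sets, ran from 0.9562 to 0.9599 among HS libraries and from 0.9529 to 0.9614 between an HS and a noHS library. Among noHS libraries it ran from 0.9537 to 0.9605, so by this measure the groups did not stand apart as whole profiles. The study used 2 plates, and column numbers are given here without the plate. Each of the 20 plate columns held 1 treatment. The HS libraries of 6 h lay in columns 4 and 5 and the noHS libraries in columns 10 and 11. Over all times and in both tissues HS lay in columns 4 to 6 and noHS in columns 9 to 12, so plate position and treatment cannot be told apart by comparing times or tissues.

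At 6 h the hippocampal response consisted mostly of rises of moderate size. With limma, 130 probe sets were higher and 15 were lower in HS than in noHS at a Benjamini-Hochberg adjusted p under 0.05, where a called probe set is one that passed this test. These are 0.536% and 0.0619% of the 24249 probe sets tested, or 0.598% for both directions. The 130 rises had a median log2 difference of 0.68, which is 1.60-fold, with a range of 0.31 to 2.27. The 15 falls had a median of -0.40, or 1.32-fold lower, with a range of -2.98 to -0.30. The largest difference in each direction came from a dim probe set. Its mean log2 intensity was 4.01 in HS and 1.74 in noHS for the rise, and 0.21 in HS and 3.19 in noHS for the fall. A difference over 1.5-fold was reached by 91 of the rises and 6 of the falls. One over 2-fold was reached by 15 rises (0.0619% of the array) and by the dim fall only (0.00412%). Over all probe sets the median log2 difference was -0.03, and 2490 (10.3%) had an unadjusted p under 0.05.

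The 4 HS libraries all lay above the 5 noHS libraries for 120 of the 130 rises, and all lay below them for 10 of the 15 falls. Over the whole array 656 probe sets (2.71%) had every HS library above every noHS library, and 409 (1.69%) had every HS library below. The number of calls varied with the libraries used. Against 145 with all libraries, it was 69, 151, 77 and 76 without HS replicates 1, 2, 3 and 4. Without noHS replicates 1, 2, 3, 4 and 5 it was 133, 88, 101, 96 and 138. Each of these fits also had 1 array fewer for the contrast. Rises outnumbered falls in each of the 9 fits that left out 1 library. When the column on the plate entered as a random block, limma called 54 rises and 5 falls.

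**Figure D1:**
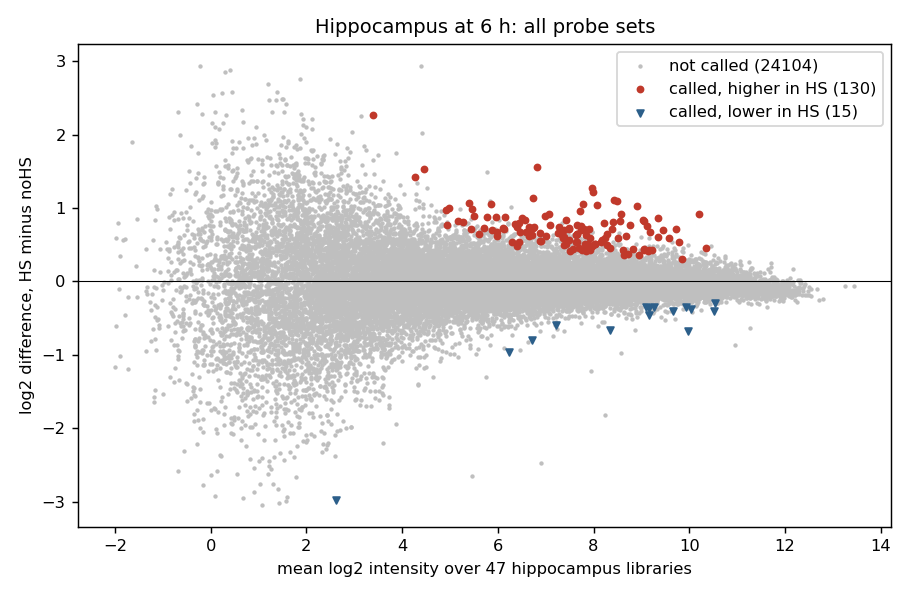
Log2 difference of each probe set at 6 h in hippocampus (HS minus noHS, vertical axis) against its mean log2 intensity over 47 hippocampus libraries (horizontal axis). Red points are the 130 probe sets called higher in HS, blue triangles the 15 called lower, and grey points the rest; most called probe sets lie at middle or high intensity, where grey points spread least.

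Called probe sets were not spread evenly over the range of brightness. When the array was divided into 5 equal classes by mean intensity, the dimmest class held 0 rises and 1 fall, and the next held 7 rises and 0 falls. The middle class held 39 rises and 2 falls, and the one above it held 60 rises and 2 falls. The brightest class held 24 rises and 10 falls, so the falls lay mostly among the most abundant signals. The median standard error of the log2 difference was 0.785 in the dimmest class and 0.102 in the brightest, and only large differences could be called among dim probe sets.

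The named rises and falls are the largest differences among called probe sets with a mean log2 intensity of at least 6 in the higher group and no overlap between the groups. The rise of 1394160_AT was the third largest of all called differences. Its log2 intensity was 7.52, 7.36, 7.75 and 8.32 in the HS libraries, against 6.09, 4.85, 6.69, 6.69 and 6.54 in the noHS libraries. Every HS library lay above every noHS library, and noHS replicate 2 was the lowest by a wide margin. The mean was 7.74 ± 0.42 in HS (SD, n = 4) and 6.17 ± 0.78 in noHS (SD, n = 5). HS was thus higher by 1.57 on the log2 scale, or 2.96-fold, and limma gave this a standard error of 0.257 and an adjusted p of 6.58e-04. The call was lost when only the 9 libraries of 6 h were fitted (adjusted p = 0.0554 in limma).

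For 1393571_AT the HS libraries had log2 intensities of 9.20, 8.82, 9.10 and 9.37, against 7.98, 7.29, 8.11, 7.71 and 8.13 in the noHS libraries. The lowest HS library was above the highest noHS library, and noHS replicate 2 was again the lowest. The means were 9.12 ± 0.23 in HS (SD, n = 4) and 7.85 ± 0.35 in noHS (SD, n = 5). HS was higher by 1.28 on the log2 scale, or 2.42-fold, with a standard error of 0.261 and an adjusted p of 0.00684 in limma.

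Of the falls, 1397846_AT had log2 intensities of 6.17, 6.53, 5.93 and 6.59 in HS and 6.87, 6.74, 7.48, 7.08 and 7.32 in noHS. The groups did not overlap, but the highest HS and the lowest noHS library were close. Its means were 6.31 ± 0.31 in HS (SD, n = 4) and 7.10 ± 0.31 in noHS (SD, n = 5). The fall of -0.79 on the log2 scale had a standard error of 0.198 and an adjusted p of 0.0432 in limma. This call was lost in 13 of the 22 alternative fits, with adjusted p between 0.0281 and 0.736.

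The other fall, 1371560_AT, had log2 intensities of 8.05, 7.98, 8.16 and 7.47 in HS, against 8.63, 8.66, 8.45, 8.57 and 8.54 in noHS. The noHS libraries lay close together, and all 4 HS libraries were below them. The means were 7.91 ± 0.31 in HS (SD, n = 4) and 8.57 ± 0.08 in noHS (SD, n = 5). HS was 1.58-fold lower (-0.66 on the log2 scale), where limma gave a standard error of 0.117 and an adjusted p of 0.00148.

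**Figure D2:**
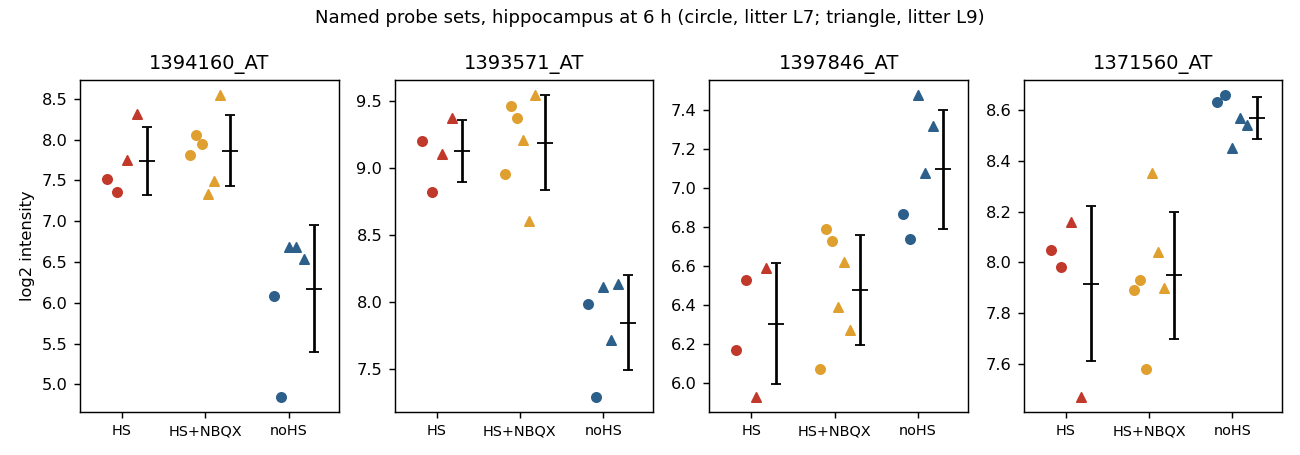
Log2 intensity (vertical axis) of the 4 named probe sets in each 6 h hippocampus library of the HS, HS+NBQX and noHS groups (n = 4, 6 and 5). Circles are pups of litter L7, triangles pups of litter L9, and black bars the mean ± SD; for 1394160_AT and 1393571_AT every HS point lies above every noHS point, and for 1397846_AT and 1371560_AT below.

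Littermates could be compared within each litter. The HS-minus-noHS difference was above 0 in both litters for 130 of 130 rises and below 0 in both for 15 of 15 falls, although the same libraries had chosen these probe sets. The median log2 difference of the rises was 0.65 in L7 and 0.69 in L9, and that of the falls was -0.41 in L7 and -0.52 in L9. For 1394160_AT the difference was 1.97 in L7 and 1.40 in L9, and for 1393571_AT it was 1.37 in L7 and 1.25 in L9. The fall of 1397846_AT was -0.45 in L7 and -1.03 in L9, and that of 1371560_AT was -0.63 in L7 and -0.70 in L9. Fitted alone with limma, litter L7 gave 0 calls (1699 at an unadjusted p under 0.05) and litter L9 gave 13 rises and 1 fall. With litter as a fixed block in the fit of all 47 libraries, 205 probe sets were higher and 36 lower, and all 145 calls of the fit without it were among them.

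The same probe sets were then followed in hippocampi of other pups, killed at 1, 12, 48 and 168 h. Of the 130 rises, 129 were above 0 at 1 h, 130 at 12 h, 129 at 48 h and 130 at 168 h, whereas over the array 52.0%, 50.5%, 45.4% and 53.5% of probe sets were above 0 at these times. The median log2 difference of the rises was 0.55 at 1 h, 0.79 at 12 h, 0.65 at 48 h and 0.63 at 168 h, beside 0.68 at 6 h. Called higher in HS at each of these times by the same fit were 90, 117, 107 and 94 of the 130, where 1.60%, 2.92%, 2.62% and 1.98% of all probe sets were called higher. These shared calls were 23.2%, 16.5%, 16.9% and 19.6% of the longer lists of rises at those times. All 4 other times called 63 of the 130, and 3 were called at none of them. The fit shares the spread of a probe set over all times, so a probe set called at 6 h is easier to call at the other times. The shares of the array also count dim probe sets, few of which were called at 6 h.

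The falls were followed in the same way. At 1, 12, 48 and 168 h, 1, 7, 4 and 4 of the 15 were called lower in HS, where 0.417%, 0.342%, 1.06% and 0.425% of all probe sets were called lower. Their direction was negative for 14, 14, 15 and 12 of the 15, with median log2 differences of -0.19, -0.33, -0.23 and -0.19. Being chosen at 6 h favours a larger value at 6 h than elsewhere, in both directions. The limits given for shared calls of the rises hold for the falls too.

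For 1394160_AT the mean log2 intensity of HS libraries was 7.56, 7.74, 7.72, 7.84 and 8.34 at 1, 6, 12, 48 and 168 h, and that of noHS libraries was 6.29, 6.17, 5.63, 5.29 and 5.66 at the same times. The log2 difference was 1.27, 1.57, 2.09, 2.54 and 2.68 in the same order, so the 6 h difference was above that at 1 h and below those of the 3 later times. The differences of 1393571_AT were 1.01, 1.28, 1.74, 1.22 and 0.97, all called by limma at adjusted p values between 4.9e-05 and 0.0202. The differences of 1397846_AT at 1, 12, 48 and 168 h were -0.28, -0.43, -0.20 and -0.07, none of them called (adjusted p 0.367 to 0.922). For 1371560_AT they were -0.19, -0.49, -0.30 and -0.27, and the one at 12 h was called (adjusted p = 0.0144 from limma).

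Whether 6 h differed from the other times was tested directly, as the 6 h difference minus the mean of the differences at the other 4 times. Limma called 0 of 24249 probe sets, and 1014 (4.18%) had an unadjusted p under 0.05. For 1394160_AT this contrast was -0.58 (95% interval -1.16 to -0.01) and for 1393571_AT 0.04 (-0.54 to 0.63). For 1397846_AT it was -0.55 (-0.99 to -0.11) and for 1371560_AT -0.35 (-0.61 to -0.09), each with an adjusted p of 0.999. The intervals are not adjusted for the number of probe sets, and choosing these falls at 6 h favours a contrast below 0. Each time had its own litters, so time and litter cannot be told apart.

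**Figure D3:**
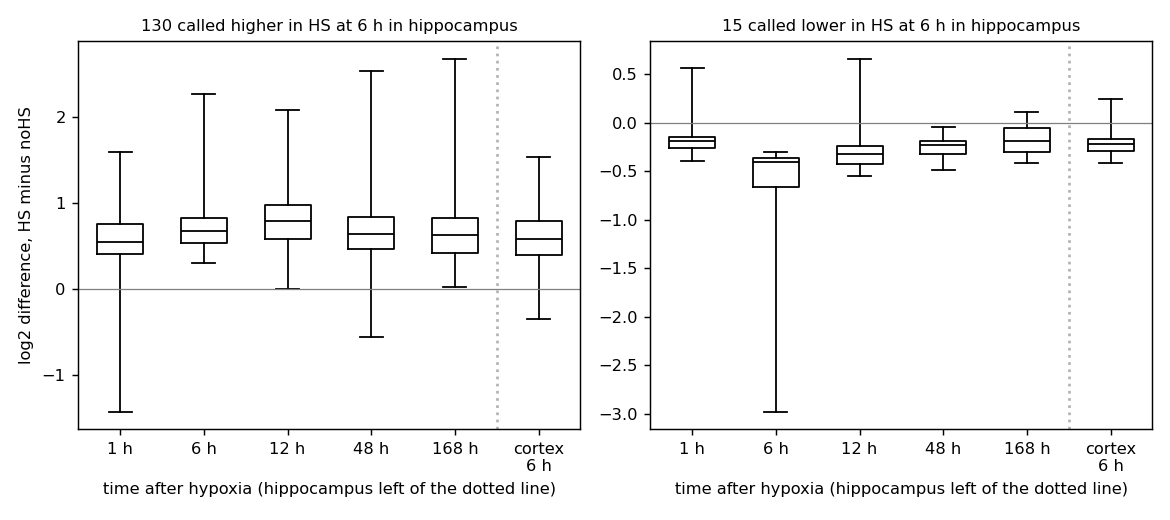
Log2 differences (HS minus noHS, vertical axis) of the 130 probe sets called higher (left) and the 15 called lower (right) at 6 h in hippocampus, at each time in hippocampus and at 6 h in cortex (horizontal axis). Boxes are quartiles with the median and whiskers run to the lowest and highest probe set; the boxes of the rises lie above 0 at every time and in cortex, and those of the falls lie below 0 and nearer to it at other times than at 6 h.

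In cortex at 6 h, from 4 HS and 6 noHS pups, 129 of the 130 hippocampal rises were above 0 with a median log2 difference of 0.58, and 85 were called higher (1.98% of the array was called higher there). These 85 were 65.4% of the hippocampal rises and 17.7% of the cortical rises. Of the 15 falls, 13 were below 0 in cortex with a median of -0.22, and 3 were called lower (2.31% of the array). 1394160_AT reached 7.33 ± 0.32 in HS cortex (SD, n = 4) and 6.05 ± 0.58 in noHS cortex (SD, n = 6), and this cortical rise of 1.28 on the log2 scale was called with an adjusted p of 6.33e-04 in limma. 1393571_AT reached 8.93 ± 0.19 in HS cortex (SD, n = 4) and 7.53 ± 0.32 in noHS cortex (SD, n = 6), a difference of 1.39. The falls 1397846_AT and 1371560_AT differed by -0.31 and -0.19 in cortex and were not called there (adjusted p of 0.449 and 0.705).

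The calls in cortex, 480 higher and 559 lower, held many more falls than those in hippocampus, but the difference between the tissues was called for 1 probe set only (0.00412%). In a limma fit of both tissues with the pup as a random block, 1270 probe sets (5.24%) had an unadjusted p under 0.05 for this difference. That fit held no term for the plate. The call was 1382618_AT, named here because it was the only one. Its log2 intensity in hippocampus was 1.76, 3.75, 3.58 and 3.08 in HS and 3.99, 3.43, 4.11, 2.58 and 3.61 in noHS, with overlapping groups. In cortex it was 4.32 ± 0.11 in HS (SD, n = 4) and 1.79 ± 0.96 in noHS (SD, n = 6). The HS response was thus lower in hippocampus than in cortex, by -3.03 on the log2 scale, and limma gave this contrast a standard error of 0.584 and an adjusted p of 0.0369. The probe set is dim in both tissues, and the call was lost when arrays were scaled in other ways. The hybridization spikes, transcripts added in fixed amount, also differed between the groups in cortex. There they averaged 10.81 ± 0.03 on the log2 scale in HS (SD, n = 4) and 10.41 ± 0.08 in noHS (SD, n = 6) without overlap, and 12 of the 18 spike probe sets were called higher in HS. In hippocampus all 18 were lower in HS, so the spikes ran in opposite directions in the tissues. The part of the spikes in the responses of either tissue was not tested. Most pups gave both tissues, so the cortex is not a set of separate animals.

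The HS+NBQX hippocampi of 6 h share their noHS comparison libraries with the HS group, so their levels are given side by side. 1394160_AT had log2 intensities of 7.81, 8.06, 7.95, 7.33, 7.49 and 8.55 in the HS+NBQX libraries, a mean of 7.86 ± 0.43 (SD, n = 6), beside 7.74 in HS and 6.17 in noHS. The mean of 1393571_AT was 9.19 ± 0.36 in HS+NBQX (SD, n = 6), 9.12 in HS and 7.85 in noHS. 1397846_AT averaged 6.48 ± 0.28 and 1371560_AT 7.95 ± 0.25 in HS+NBQX (SD, n = 6), where HS had 6.31 and 7.91, and noHS had 7.10 and 8.57. For all 4 probe sets the HS+NBQX mean was nearer to HS than to noHS. The same noHS libraries had helped to choose these probe sets, which favours HS+NBQX values on the HS side of noHS. By plate column the HS+NBQX libraries of 6 h lay in columns 1 and 2, HS in 4 and 5 and noHS in 10 and 11. Plate position and treatment thus cannot be told apart in this comparison either. Over the 130 rises the median difference from noHS was 0.77 on the log2 scale in HS+NBQX and 0.68 in HS, and over the 15 falls it was -0.35 in HS+NBQX and -0.40 in HS. Over all probe sets it was -0.02 in HS+NBQX and -0.03 in HS. The limit from the choice of probe sets holds for these medians too.

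The rat control transcripts that the identifiers name are the metabolic enzymes GAPDH and hexokinase, which act in glycolysis, beta-actin, a cytoskeletal protein, and 5S rRNA, a part of the ribosome. None of their 10 probe sets was called by limma, and 1, for the 5′ end of GAPDH, had an unadjusted p under 0.05. At the 3′ end, GAPDH had 12.06, 12.11, 12.36 and 12.30 on the log2 scale in HS and 12.32, 12.15, 12.55, 12.53 and 12.36 in noHS, which overlap. Its log2 difference was -0.17 (adjusted p = 0.595 from limma). Beta-actin at the 3′ end averaged 12.16 ± 0.18 in HS (SD, n = 4) and 12.19 ± 0.23 in noHS (SD, n = 5), a smaller gap than the SD of either group. Hexokinase at the 3′ end averaged 8.12 ± 0.03 in HS (SD, n = 4) and 8.17 ± 0.13 in noHS (SD, n = 5), and the groups overlapped.

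The ratio of 3′ to 5′ signal, which is raised when RNA is degraded or labelled incompletely, was taken on the log2 scale. Over the 3 transcripts its log2 averaged 1.64 ± 0.11 in HS (SD, n = 4) and 1.80 ± 0.14 in noHS (SD, n = 5), which are ratios of 3.12 and 3.49. For beta-actin the log2 ratio was 2.48 ± 0.19 in HS (SD, n = 4) and 2.73 ± 0.12 in noHS (SD, n = 5), so the 3′ end was 5.59 times as bright as the 5′ end in HS and 6.61 times in noHS. For hexokinase the log2 ratio was 1.53 ± 0.10 in HS and 1.77 ± 0.34 in noHS. The groups overlapped in each ratio. In hippocampus the hybridization spikes, which are bacterial and phage transcripts, had a mean log2 intensity of 10.33 ± 0.17 in HS (SD, n = 4) and 10.56 ± 0.11 in noHS (SD, n = 5). All 18 spike probe sets were lower in HS, with a median log2 difference of -0.22, and none was called by limma (5 at an unadjusted p under 0.05). This gap lay mainly in litter L7, where the spikes averaged 10.26 and 10.12 in HS and 10.57 and 10.66 in noHS. In litter L9 they averaged 10.48 and 10.47 in HS and 10.66, 10.49 and 10.41 in noHS, which overlap. In two-sided exact permutation tests, for which 0.0159 is the smallest p that 4 against 5 libraries allow, p was 0.0635 for the spikes, 0.0635 for the beta-actin log2 ratio and 0.111 for the mean log2 ratio (0.254, 0.254 and 0.296 after Benjamini-Hochberg adjustment over 8 measures). Body temperature before hypoxia was 31.2 to 32.4 °C in HS and 30.8 to 31.7 °C in noHS. The part of these measures in the differences above was not tested.

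**Figure D4:**
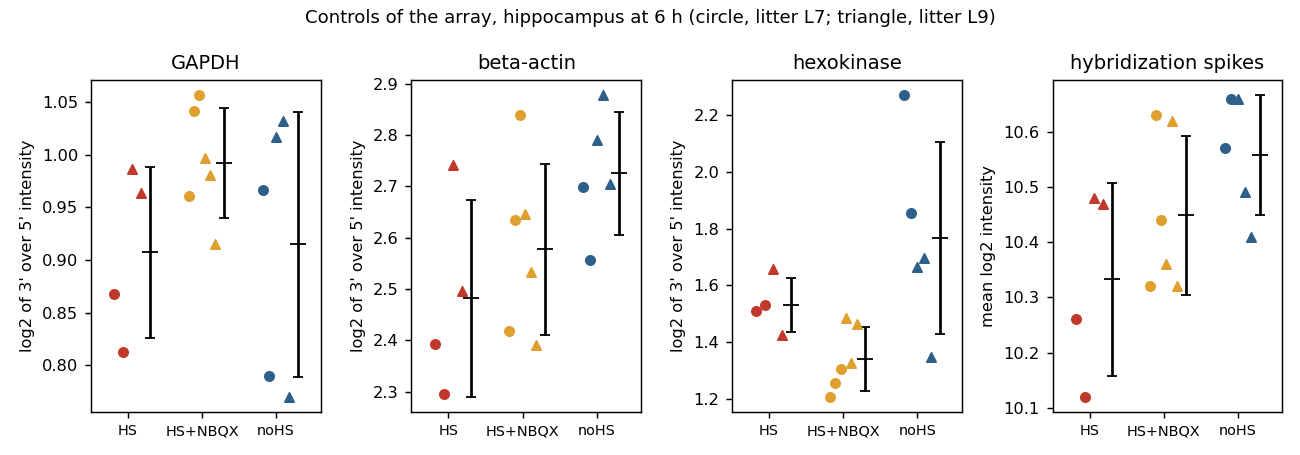
Log2 of the ratio of 3′ to 5′ intensity for GAPDH, beta-actin and hexokinase, and mean log2 intensity of the 18 hybridization spike probe sets (vertical axes), in each 6 h hippocampus library of the HS, HS+NBQX and noHS groups. Circles are litter L7, triangles litter L9, and bars the mean ± SD; HS and noHS points overlap in every panel, with the HS mean lower for beta-actin, hexokinase and the spikes.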

How the data were processed

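The deposited values are linear microarray intensities, 1 per probe set and library. The authors processed scans of Affymetrix HT Rat Focus plate arrays with MAS5 and rescaled each array linearly to a shared upper quartile of its present-called values. No version of MAS5 is stated in the sources used here. Groups, litters and seizure counts came from the sample labels, and plate positions from the study's description of its design. The members, gene lists and tests were chosen with earlier results of these data known.

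The 97 intensities of the series at or below 0 were set to 0.0526, its smallest positive value, and log2 was taken with no further scaling. This leaves the spread of dim probe sets wide. A limma model (version 3.58.1, R 4.3.3, eBayes moderated along a mean-variance trend) was fitted to the 47 HS and noHS hippocampus libraries with 1 mean per treatment and time, which gave 37 residual degrees of freedom, and the 6 h means were contrasted. p-values were adjusted over all 24249 probe sets by the Benjamini-Hochberg method, with a threshold of 0.05. The tissue contrast used both tissues with the pup as a random block. Exact permutation tests used scipy 1.17.1.

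Each library is 1 pup, so p-values measure the spread between pups. In the fit of 47 libraries this spread was pooled over all times. It does not hold an offset between the plate columns of HS and those of noHS. The number of arrays limits the precision. On simulated data for the 6 h comparison, with 100 probe sets changed per size among 24249, the fit recovered 27 changed by 0.5 on the log2 scale, 59 changed by 1 and 68 changed by 1.5, with 6 false calls. The simulated libraries had independent noise and no litter or plate column effect, so the false calls do not cover such effects.

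Named probe sets are the 2 largest rises and 2 largest falls among called probe sets with a mean log2 intensity of at least 6 in the higher group and no overlap of groups. No table at hand pairs probe sets with genes, so the planned gene lists and cell type markers could not be applied and no sequences are shown. Alternatives tried were quantile normalization, a common median, a pseudocount of 32, leaving out the dimmest 40% of probe sets, eBayes without trend, the 9 libraries alone, all 3 treatments in one fit, the methods' t-test, blocks for replicate number, litter and plate column, each litter alone, and leaving out each library.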

Additional observations from a re-analysis of the deposited data

Results flagged for a closer look

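The middle probe set for hexokinase, the enzyme of the first step of glycolysis, had 1 noHS library apart from the others. Its log2 intensity was 6.74 in noHS replicate 3 and between 6.18 and 6.27 in the other noHS libraries. Of 38 groups of values examined in this way 1 stood out, and chance marks about 1 in 20. The probe set was not called between HS and noHS (6.27 ± 0.13 in HS, SD, n = 4, and 6.32 ± 0.24 in noHS, SD, n = 5, adjusted p = 0.959 from limma).

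The HS response of 1382618_AT at 6 h was lower in hippocampus than in cortex, with a log2 difference between the responses of -3.03 (adjusted p = 0.0369 from limma). In cortex the HS libraries lay between 4.23 and 4.47 and the noHS libraries between 0.55 and 2.89. At 1, 12, 48 and 168 h its noHS cortex means were 3.89, 3.43, 3.22 and 3.60, so the 6 h noHS value of 1.79 was the low one. In hippocampus the noHS mean at 6 h was 3.55, and at the other times it lay between 3.14 and 3.56.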

How the results depend on the processing

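The 145 calls at 6 h moved by at most 1.5 times with quantile normalization, a common median, a pseudocount, eBayes without trend or the dimmest 40% left out, although the falls in that last fit numbered 25. The 9 libraries alone gave 94 calls, of which 5 were falls, and 71 of the 94 were among the 145. All 3 treatments in one fit gave 228 calls (196 higher and 32 lower), and the litter block gave 241 (205 higher and 36 lower). When the column on the plate entered as a random block, 59 were called (54 higher and 5 lower). Litter L7 alone gave 0 calls (1699 at an unadjusted p under 0.05) and L9 alone 14 (13 higher and 1 lower). The methods' t-test with equal variances gave 0 calls after Benjamini-Hochberg adjustment. It gave 2544 at an unadjusted p under 0.05 and 664 at a false-discovery rate of 0.25. In the study this t-test gave the p-values of expression ratios. The rate of 0.25 was applied there to treatment effects in an analysis of variance over all times. Leaving out 1 library gave 69 to 151 calls, 56 to 121 of them higher and 8 to 30 lower. The causes were not tested.

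With the replicate number as a block, 116 probe sets were called (104 higher and 12 lower), of which 91 were among the 145, and the call of 1397846_AT was lost (adjusted p = 0.0792 from limma). Deviations of HS and noHS libraries with the same number correlated at -0.021 to 0.194, and those with different numbers at -0.222 to 0.145. So few correlations cannot decide whether the numbers pair the samples, and the main fit used no such pairing.

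The test of 6 h against the other times gave 0 calls in limma under each alternative tried (856 to 1145 at an unadjusted p under 0.05). That of hippocampus against cortex gave 0 with quantile normalization and 0 with a common median (1113 and 1188 at an unadjusted p under 0.05), and 0 to 2 when 1 library was left out. None of the 4 named probe sets changed direction in the 22 alternatives. Their calls held in 19 for 1394160_AT, 20 for 1393571_AT, 19 for 1371560_AT and 9 for 1397846_AT. Other ways of choosing a gene's probe set in the gene lists were not run, because probe sets could not be matched to genes. Dim probe sets limit the depth of the comparison, as 1 of the 145 calls lay in the dimmest of 5 brightness classes.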
